A study of Homo sapiens with 12 samples.

Results

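The genes described are 10 AP-1 and immediate-early genes, FOS, FOSB, FOSL1, FOSL2, JUN, JUNB, JUND, EGR1, IER3 and PHLDA1, chosen by gene symbol from the 60603 genes of a bulk RNA-seq count table. All 10 passed the filter on low counts, which left 17775 genes to test. The cells were T24, an established human urothelial carcinoma line of the bladder, in 4 groups of 3 libraries: WT cells with no treatment, WT cells given 5-Ad-IAA, NS1 cells with no treatment, and NS1 cells given 5-Ad-IAA. The compound, a derivative of auxin, is the inducer in AlissAID, a system that degrades untagged proteins through an auxin-dependent ubiquitin ligase. The labels do not spell out NS1 or the protein it is directed at (the same name belongs to a synthetic binder of RAS proteins, and whether that is meant is not stated), nor whether the NS1 line is a single clone. Dose and duration were not used here. The system acts on protein, so transcript counts do not check the labels. Nothing in the labels says that the 3 libraries of a group came from separate cultures, so p-values measure the spread between these libraries, which may be technical.

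AP-1 is a dimer of leucine zipper proteins. JUN, JUNB and JUND can pair among themselves or with FOS, FOSB, FOSL1 and FOSL2, while the FOS proteins need a JUN partner, and the dimers bind the AP-1 site or the related cyclic AMP response element (CRE). Growth factors that act through RAS and the kinase ERK switch on FOS and EGR1 within minutes, largely through serum response factor (SRF), which binds the CArG box, and its ETS-domain partners. FOSL1 accumulates more slowly, its protein is stabilised by ERK phosphorylation, and it is often the main FOS protein of carcinoma cells with active RAS signalling. IER3 and PHLDA1 are early response genes tied to cell survival and to the adaptation of growth factor signalling.

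Library totals ran from 10593934 to 20266996 counts, and replicate 1 was the deepest in each group. KRT7, KRT8, KRT18 and KRT19, keratins of simple epithelia, were present in all 12 libraries, with KRT8 at 1156 to 3074 CPM (counts scaled to library size with TMM normalisation). CDH1, the epithelial cadherin, did not exceed 0.0967 CPM and was at 0 in 7 libraries, and UPK3A, a uroplakin of mature urothelium, was at 0 in all 12, as were KRT5 and TP63, markers of basal cells. Of the other basal markers, KRT14 and KRT6A did not exceed 0.332 CPM, while CD44, which many carcinoma cells express, stood at 450 to 1031 CPM. The luminal regulators GATA3, PPARG and FOXA1 were present, GATA3 at 22.15 to 104.5 CPM. Of the fibroblast markers, DCN was at 0 in all 12 libraries, LUM and PDGFRA did not exceed 0.166 CPM, and COL1A1 stood at 1.08 to 4.15 CPM. Of the leukocyte markers, PTPRC and CD3E did not exceed 0.0873 CPM, and CD14 stood at 0.432 to 2.71 CPM. In bulk libraries, fewer cells of a kind and less RNA per cell cannot be told apart.

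Promoter windows of 300 bases (250 before the RefSeq start and 50 after it, GRCh38.p14) matched 8 of the 10 genes, all but FOSL1 and IER3. They were searched on both strands for the AP-1 site TGACTCA, found in 4.95% of all 35116 windows, the CRE TGACGTCA (1.85%), the ETS core CCGGAA (17.2%) and the CArG box (1.29%). The JUND window and the PHLDA1 window are shown because these genes moved with the inducer, the FOSL2 window because that gene differed most firmly between the untreated lines, and the EGR1 window for its CArG boxes. Capitals mark the matches. JUND, at chr19:18281573-18281872 on the minus strand, held 1 CRE, starting at position -200 from the RefSeq start.
JUND: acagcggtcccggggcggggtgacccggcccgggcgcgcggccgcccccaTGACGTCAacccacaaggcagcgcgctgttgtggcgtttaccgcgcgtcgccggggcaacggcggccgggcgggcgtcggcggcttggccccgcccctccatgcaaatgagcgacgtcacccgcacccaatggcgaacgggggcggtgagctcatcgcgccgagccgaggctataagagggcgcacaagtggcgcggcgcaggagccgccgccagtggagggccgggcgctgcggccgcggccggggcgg
PHLDA1, at chr12:76031727-76032026 on the minus strand, held 1 ETS core at position -89, read on the strand opposite to the gene.
PHLDA1: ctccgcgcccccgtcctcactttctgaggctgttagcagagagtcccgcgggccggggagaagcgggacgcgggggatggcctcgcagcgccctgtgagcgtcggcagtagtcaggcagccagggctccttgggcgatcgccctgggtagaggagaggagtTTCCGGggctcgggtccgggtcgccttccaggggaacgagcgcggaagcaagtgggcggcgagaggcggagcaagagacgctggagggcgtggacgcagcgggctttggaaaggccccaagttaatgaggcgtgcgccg
FOSL2, at chr2:28392608-28392907 on the plus strand, held the only AP-1 site among the 8 windows, at position 5 after the start.
FOSL2: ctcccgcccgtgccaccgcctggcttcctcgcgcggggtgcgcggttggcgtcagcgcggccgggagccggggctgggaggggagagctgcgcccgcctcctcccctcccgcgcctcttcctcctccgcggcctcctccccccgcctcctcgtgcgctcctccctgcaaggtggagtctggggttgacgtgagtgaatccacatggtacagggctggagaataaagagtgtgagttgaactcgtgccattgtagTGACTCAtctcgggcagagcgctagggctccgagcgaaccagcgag
EGR1, at chr5:138465229-138465528 on the plus strand, held 2 CArG boxes, at positions -105 and -83.
EGR1: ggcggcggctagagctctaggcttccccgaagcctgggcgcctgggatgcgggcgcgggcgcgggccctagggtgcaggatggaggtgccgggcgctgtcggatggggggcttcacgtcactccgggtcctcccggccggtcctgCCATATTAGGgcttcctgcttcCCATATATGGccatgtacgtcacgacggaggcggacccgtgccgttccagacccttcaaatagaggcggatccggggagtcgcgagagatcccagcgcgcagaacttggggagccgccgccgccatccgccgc
The FOSB window held 1 ETS core at position -205, and those of FOS, JUN and JUNB held none of the 4 motifs. A match is a description of the letters and no evidence of binding. Only these letter patterns within 300 bases were searched, so the lack of a match does not exclude a variant site or one further away.

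With the inducer in NS1 cells, FOSL1 fell to 0.53 and PHLDA1 to 0.55 of the untreated level and JUND rose to 1.47 times it, while the other 7 members did not pass the test. These 3 of 10 (1 higher, 2 lower) stood beside 6.15% of the 17775 genes that passed (an adjusted p under 0.05 in edgeR's quasi-likelihood test, Benjamini-Hochberg over all genes tested). The members' median log2 fold change was -0.34, against 0.01 over all genes. The treated and untreated libraries did not overlap for 5 of the 10 members (FOS and JUND higher, FOSL1, JUN and PHLDA1 lower), against 27.2% of all genes. In WT cells no member passed, beside 0% of all genes, and the members' log2 fold changes ran from -0.08 to 0.35. There, 94 of all genes but no member had an unadjusted p under 0.05, DESeq2 also called 0 genes, and 0 members were free of overlap, against 3.41% of all genes. Without any effect, more than 94 of the 17775 genes would be expected under 0.05, so the edgeR fit was conservative in WT cells. Its 0 calls there do not show that small changes were absent.

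FOSL1 encodes FRA-1, a FOS protein without the activation domain of FOS itself. Its gene lies on chromosome 11 (chr11:65892049-65900573, minus strand, hg38). Untreated NS1 libraries stood at 182, 184 and 178 CPM for replicates 1, 2 and 3, and treated ones at 101, 95.2 and 89.7 CPM. The ranges lie far apart, and both NS1 groups are tight. The log2 fold change was -0.93 (SE 0.18, adjusted p = 0.0115, edgeR), lower in 3 of 3 same-numbered pairs. In WT cells the values were 173, 301 and 273 CPM untreated and 192, 277 and 270 CPM treated, where the fitted log2 difference was -0.01 (SE 0.18) and the adjusted p was 1 (edgeR). Replicate 1 was the low library in both WT groups and not in the NS1 groups. The NS1 call was lost when the treated replicate 3 was left out (adjusted p = 0.0607, edgeR) and held in the other 5 fits that omit 1 NS1 library.

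PHLDA1, a pleckstrin homology-like protein that is induced early by growth factors, lies on chromosome 12 (chr12:76025447-76033932, minus strand). Its NS1 libraries stood at 244, 309 and 292 CPM untreated and at 153, 165 and 149 CPM treated. The treated libraries all lie under the untreated ones, and the treated group has the smaller spread. The log2 fold change was -0.85 (SE 0.17, adjusted p = 0.0132, edgeR), lower in 3 of 3 pairs. WT libraries gave 263, 420 and 378 CPM untreated and 275, 378 and 388 CPM treated, which overlap. The NS1 call was lost without untreated replicate 2 (adjusted p = 0.0591, edgeR), untreated replicate 3 (0.0515) or treated replicate 3 (0.0667). Exons of the antisense genes PHLDA1-AS1 and AC011611.4 overlap those of PHLDA1 by 553 and 779 bases. Whether counting used strand is not given in the sources used here, so reads of PHLDA1 and of these genes cannot be told apart there.

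JUND, the JUN protein that is usually present in resting cells and the least dependent on stimulation, lies on chromosome 19 (chr19:18279760-18281622, minus strand). NS1 libraries gave 41.4, 44.1 and 46.3 CPM untreated and 55.9, 65.0 and 72.8 CPM treated. All 3 treated libraries are above all other libraries of the series. The log2 fold change was 0.56 (SE 0.13, adjusted p = 0.0256, edgeR), higher in 3 of 3 pairs, and in WT cells it was 0.00 (SE 0.13). The NS1 call held only without treated replicate 1, and adjusted p ran up to 0.111 (edgeR) in the 5 other fits that omit 1 library; the log2 fold change stayed between 0.47 and 0.65.

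**Figure D1:**
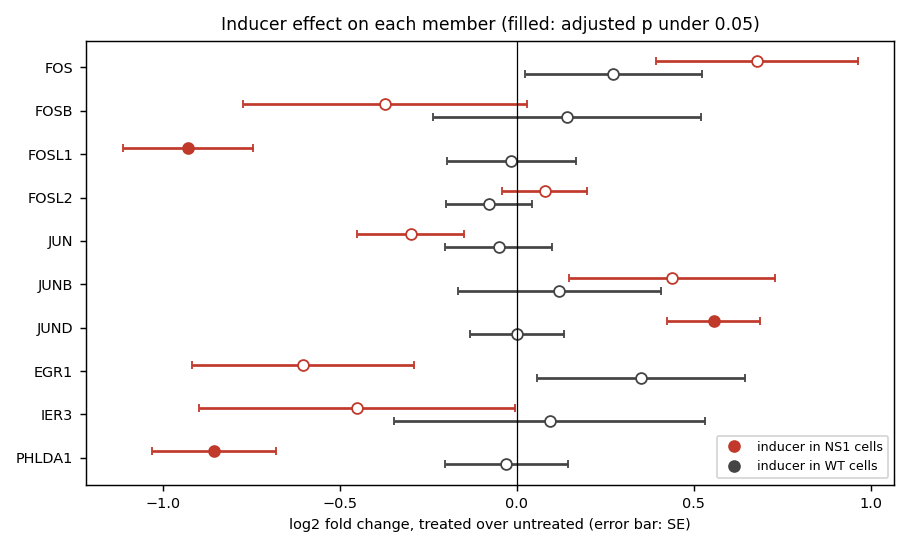
Log2 fold change of treated over untreated libraries (horizontal axis, error bars SE) for each gene, in NS1 cells (red) and WT cells (dark), filled where the adjusted p was under 0.05. FOSL1, PHLDA1 and JUND are filled in NS1 cells, and no WT value is.

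The remaining JUN genes, JUN and JUNB, differed by less. JUN, the founding AP-1 subunit (chr1:58780788-58784327, minus strand), stood at 176, 183 and 188 CPM in untreated and 124, 166 and 155 CPM in treated NS1 libraries. These ranges do not overlap, yet the log2 fold change of -0.30 (SE 0.15) missed the threshold (adjusted p = 0.283, edgeR). JUNB, a JUN protein that can restrain JUN (chromosome 19), gave 16.6, 30.0 and 30.1 CPM untreated and 21.5, 39.8 and 42.7 CPM treated. Replicate 1 is low in both groups, so the ranges overlap although each treated library exceeds its same-numbered partner (log2 fold change 0.44, SE 0.29, adjusted p = 0.44, edgeR). Exons of JUNB overlap 259 bases of HOOK2 on the opposite strand.

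FOSL2 encodes FRA-2, the FOS protein closest to FRA-1 in make-up (chromosome 2). It gave 208, 220 and 196 CPM untreated and 226, 231 and 202 CPM treated in NS1 cells, and the groups overlap (log2 fold change 0.08, SE 0.12, adjusted p = 0.785, edgeR). FOS (chromosome 14) was the lowest member, at 0.80, 1.16 and 1.06 CPM untreated and 2.13, 1.31 and 1.25 CPM treated in NS1 cells. Few reads stand behind these values, between 11 and 56 counts in each of the 12 libraries, and the gap rests mostly on replicate 1 (log2 fold change 0.68, SE 0.28, adjusted p = 0.188, edgeR). FOSB (chromosome 19), which like FOS is induced within minutes of stimulation, gave 7.53, 6.61 and 5.58 CPM untreated and 6.81, 3.67 and 4.57 CPM treated, with overlap (log2 fold change -0.37, SE 0.40, adjusted p = 0.676, edgeR).

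EGR1, a zinc-finger factor and a standard readout of ERK and SRF activity (chromosome 5), gave 9.07, 9.88 and 8.94 CPM in untreated NS1 libraries and 9.88, 4.19 and 3.74 CPM in treated ones. Treated replicate 1 is level with the highest untreated library, while the other treated libraries lie under all untreated ones. The log2 fold change was -0.60 (SE 0.31, adjusted p = 0.302, edgeR). Without treated replicate 1 it was -1.23, and EGR1 passed (adjusted p = 0.0133, edgeR). IER3, a stress and survival gene (chromosome 6), gave 44.8, 76.8 and 81.0 CPM untreated and 33.4, 56.7 and 58.5 CPM treated. The ranges overlap because replicate 1 is low in both, and the log2 fold change was -0.45 (SE 0.45, adjusted p = 0.644, edgeR). Its exons share 359 bases with IER3-AS1 on the opposite strand, whose own level was 17.0 ± 5.77 CPM in untreated and 12.4 ± 3.84 CPM in treated NS1 cells (SD, n = 3).

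Untreated and treated libraries of the same replicate number deviated together in both lines, so the members were also compared within pairs. A shift shared by the replicate 1 libraries alone can give this for all 3 numbers. Whether replicates 2 and 3 pair was not tested, so the within-pair values and the block rest on the numbers as labelled. In NS1 cells, the pairs 1, 2 and 3 gave log2 differences of -0.42, -0.44 and -0.47 for IER3, and of 0.36, 0.41 and 0.50 for JUNB. Within pairs, then, these genes with a wide spread in level differed by nearly the same factor. JUN gave -0.51, -0.14 and -0.28, also of 1 sign. With the replicate number as a block within each line, 6 of 10 members passed in NS1 cells, beside 25.9% of all genes. JUN (adjusted p = 0.00865), JUNB (0.00191) and IER3 (0.000487, all edgeR) passed beside the 3 above. No member passed in WT cells with that block. EGR1 gave 0.12, -1.15 and -1.16, so its first pair stood apart, and FOS gave 1.01, 0.12 and 0.16. With replicate 1 left out of every group, 6 of 10 members passed, beside 11.4% of all genes, with EGR1 among them (log2 fold change -1.25, adjusted p = 0.00194, edgeR) and JUN not. With replicate 2 or replicate 3 left out of every group, 0 of all genes passed, members included (for FOSL1, adjusted p = 0.215 and 0.275, edgeR).

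**Figure D2:**
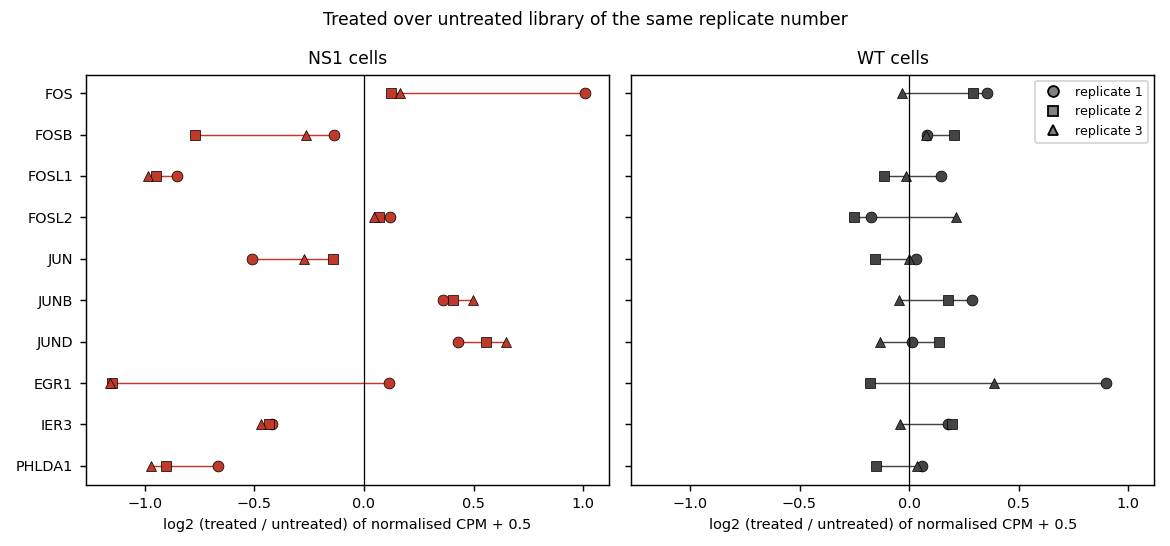
Log2 ratio of the treated to the untreated library of the same replicate number (horizontal axis, CPM + 0.5), for each gene in NS1 cells (left) and WT cells (right), point shapes marking the replicate number. In NS1 cells the 3 pairs of IER3 nearly coincide at -0.42 to -0.47, and those of EGR1 spread from -1.16 to 0.12.

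Replicate 1 stood apart by gene and not only by depth. It was the lowest library of all 4 groups for JUN, JUNB, JUND and IER3. For IER3 it lay 0.78 to 1.63 log2 units under the mean of the other 2 libraries, and for JUNB 0.44 to 0.93. For FOSB it lay 1.22 and 1.28 log2 units under them in the WT groups and 0.29 and 0.67 above them in the NS1 groups. The part of the replicate number in each result was not tested beyond the fits with the block and without replicate 1.

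Before any inducer, the NS1 and WT lines differed in 3 of 10 members, beside 12.5% of all genes. FOSL2 and JUN were higher in NS1 cells and FOS was lower. The libraries did not overlap for these 3 members, against 31% of all genes. The comparisons share libraries with each other, so their values are not independent. FOSL2 stood at 104, 126 and 93.6 CPM in untreated WT libraries against 208, 220 and 196 CPM in NS1 libraries. All NS1 values lie above all WT values by a wide margin (log2 fold change 0.95, SE 0.12, adjusted p = 0.000496, edgeR). JUN stood at 79.2, 116 and 100 CPM in WT and 176, 183 and 188 CPM in NS1 (log2 fold change 0.89, SE 0.15, adjusted p = 0.00285, edgeR). FOSL2 and JUN held in all 6 fits that leave out 1 library, and JUN missed without replicate 3 of every group (adjusted p = 0.116, edgeR). FOS stood at 1.97, 1.73 and 2.13 CPM in WT and 0.80, 1.16 and 1.06 CPM in NS1 (log2 fold change -0.95, SE 0.28, adjusted p = 0.042, edgeR). That call did not survive the removal of any of the 6 libraries (adjusted p from 0.0581 to 0.149, edgeR) or DESeq2 (0.0964).

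The other 7 members did not differ between the untreated lines in this test. FOSL1 had the next smallest adjusted p, 0.122 (log2 fold change -0.46, edgeR). Without replicate 1 in every group, 7 of 10 passed, beside 19.6% of all genes: FOSL2 and JUN higher, and FOSL1 (-0.67), PHLDA1 (-0.41), EGR1 (-0.70), IER3 (-0.56) and FOSB (-0.96) lower in NS1, as log2 fold changes. FOS did not pass in that fit.

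With the inducer present in both lines, 6 of 10 members differed, beside 28.2% of all genes. FOSL2 (log2 fold change 1.10), JUND (0.78) and JUN (0.64) were higher in NS1 cells, and EGR1 (-1.46), FOSL1 (-1.37) and PHLDA1 (-1.16) lower. The libraries of these 6 did not overlap, against 43.4% of all genes. EGR1 showed it plainly, at 17.5, 15.1 and 17.8 CPM in treated WT libraries and 9.88, 4.19 and 3.74 CPM in treated NS1 libraries (SE 0.31, adjusted p = 0.00353, edgeR). FOSL2 stood at 92.2, 106 and 109 CPM in treated WT libraries, all of them less than 202 CPM, the lowest treated NS1 library (adjusted p = 4.64e-05, edgeR). EGR1 and JUN missed the threshold when replicate 2 (adjusted p = 0.0634 and 0.0705) or replicate 3 (0.0998 and 0.103, edgeR) was left out of every group. FOSB, at 5.18, 13.7 and 12.9 CPM in WT and 6.81, 3.67 and 4.57 CPM in NS1, overlapped through replicate 1 and missed the threshold (log2 fold change -1.03, adjusted p = 0.0675, edgeR). FOSB passed in DESeq2 (adjusted p = 0.0282) and in edgeR with no filter on low counts (1.52e-05). Without replicate 1, FOSB (-1.68) and IER3 (-1.09) passed as well, making 8 of 10, beside 34% of all genes.

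Whether the inducer effect differed between the lines was tested as an interaction. In this fit 0 of 10 members passed, beside 0.0225% of all genes (edgeR), while 4 members and 2196 of all genes had an unadjusted p under 0.05. FOSL1 had an interaction of -0.91 on the log2 scale (SE 0.26, adjusted p = 0.144), PHLDA1 of -0.83 (SE 0.25, adjusted p = 0.16) and JUND of 0.56 (SE 0.19, adjusted p = 0.215, all edgeR). EGR1 had the largest estimate in absolute value, -0.95 (SE 0.43, adjusted p = 0.389, edgeR). DESeq2 called FOSL1 (adjusted p = 0.0295) and PHLDA1 (0.0438), 2 of the 10 members, and 381 of all genes. With the replicate block within each line, 4 members passed, beside 14% of all genes: FOSL1 (adjusted p = 6.13e-05), PHLDA1 (0.000234), IER3 (0.00242) and JUND (0.00476, all edgeR). Without replicate 1, 3 members passed, FOSL1, EGR1 and PHLDA1, beside 3.24% of all genes.

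The make-up of the AP-1 transcripts was described on a per-length scale, CPM per kilobase of merged exons. Among the FOS genes, FOSL1 made up 88.0% ± 2.55 (SD, n = 3) of the summed level in untreated WT cells. Its share was 88.4% ± 0.90 in treated WT, 75.9% ± 0.79 in untreated NS1 and 61.1% ± 0.83 in treated NS1 cells. FOSL2 held most of the remainder, with 10.5% ± 2.73, 9.83% ± 1.11, 23.0% ± 0.73 and 37.2% ± 1.17 in the same order. These are shares of a sum, so a share can rise without a rise in level. FOSL2 itself stood at 15.1 ± 2.34 CPM per kilobase in untreated WT cells. In NS1 cells it stood at 29.1 ± 1.70 untreated and 30.7 ± 2.17 treated, so its larger share with the inducer mostly reflects the lower FOSL1 level. FOS and FOSB together stayed a minor part, FOSB at most 1.24% and FOS at most 0.58% as group means. FOSL1 was thus the most abundant FOS transcript per kilobase in all 4 groups, at 132 ± 35.6 CPM per kilobase in untreated WT, 131 ± 25.2 in treated WT, 96.1 ± 1.63 in untreated NS1 and 50.4 ± 2.90 in treated NS1 cells. The untreated NS1 mean lies inside the WT range, which goes down to 91.8, and the treated NS1 libraries do not reach it.

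Among the JUN genes, JUN had the largest share in every group mean, 42.7% ± 4.69 in untreated WT, 40.8% ± 1.23 in treated WT, 58.0% ± 2.98 in untreated NS1 and 44.0% ± 2.42 in treated NS1 cells. JUND held 31.2% ± 3.33, 30.8% ± 1.25, 26.5% ± 0.80 and 36.5% ± 2.74 in the same order. The summed level of the JUN genes per kilobase was 89.1 ± 7.04 in untreated and 95.6 ± 16.4 in treated NS1 cells, a difference smaller than the larger SD. The sum of the FOS genes was 127 ± 3.42 and 82.5 ± 5.03 in those groups. Outside AP-1, IER3 stood between 36.5 and 70.5, PHLDA1 between 19.3 and 43.9, and EGR1 between 1.89 and 5.36 CPM per kilobase as group means.

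The count ratio of FOSL1 to FOSL2, chosen after the values were seen and given as a description, needs no scaling between libraries. It was 0.876, 0.834 and 0.907 in untreated and 0.445, 0.412 and 0.444 in treated NS1 libraries. In WT it was 1.67, 2.38 and 2.92 untreated and 2.08, 2.62 and 2.49 treated. The 3 sets (WT, untreated NS1, treated NS1) did not overlap. The count ratio of JUND to JUN ran from 0.235 to 0.246 in untreated NS1, from 0.392 to 0.470 in treated NS1 and from 0.305 to 0.442 in WT libraries, so the untreated NS1 libraries were the low ones.

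**Figure D3:**
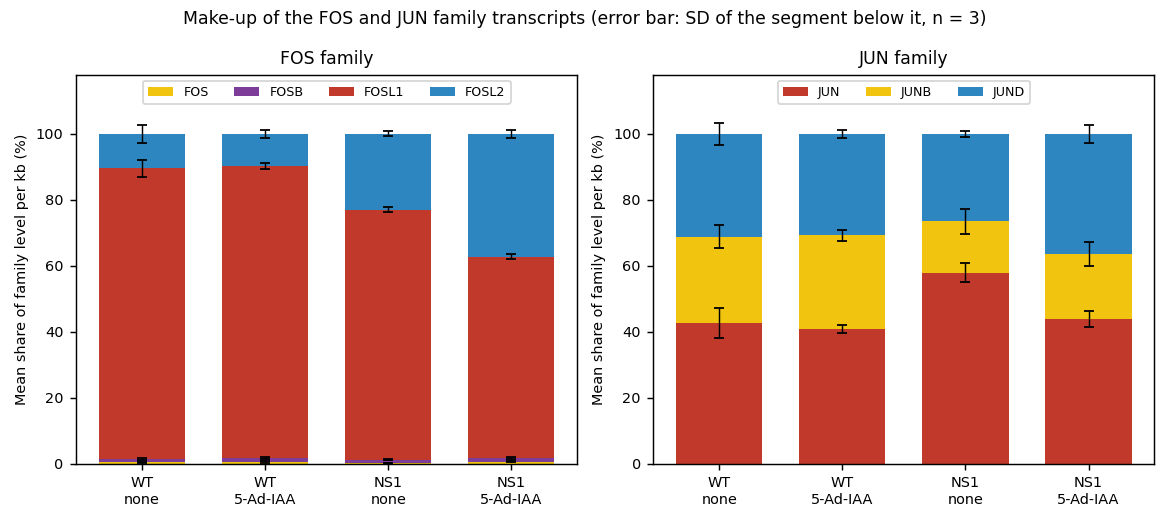
Mean share of each gene in the summed level per kilobase (vertical axis, percent) of the FOS family (left) and the JUN family (right) in the 4 groups, error bars giving the SD (n = 3) of the segment below. The FOSL1 segment is 88.0% in untreated WT and 61.1% in treated NS1 cells, and the FOSL2 segment 10.5% and 37.2%.

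The genes with the most similar profile over the 12 libraries were found for the 3 members called in NS1, by Euclidean distance between log2 CPM values centred on each gene's mean, among 10640 genes with a mean of at least 10 CPM. For FOSL1 they were PHLDA1 (distance 0.44) and DUSP6 (0.46), the ERK phosphatase, against a median distance of 2.12. DUSP6 itself had a log2 fold change of -0.83 with the inducer in NS1 cells (SE 0.17, adjusted p = 0.0143, edgeR) and 0.07 in WT cells. It was picked by its likeness to members called in that comparison, so these values describe the selection and are no separate result. For PHLDA1 they were PHLDA1-AS1 (0.22), whose exons overlap it, and DUSP6 (0.27), against a median of 1.85. For JUND they were TMSB4X (0.20), an actin-binding thymosin, and TMSB4XP6 (0.20), against a median of 1.39. TMSB4XP6 is a pseudogene copy of TMSB4X, and reads could be split between them.

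Other genes of the pathway were read from fixed lists. Of 12 further leucine zipper partners of AP-1, 9 were tested and 0 passed with the inducer in NS1 cells, beside 6.15% of all genes (edgeR). Of so few genes, 0 is close to what that share would give. Of the 9, 1 had an unadjusted p under 0.05 in edgeR, and DESeq2 called 0. The median log2 fold change of the 9 was 0.27. With the replicate block within each line 5 passed, beside 25.9% of all genes: ATF2 (0.27), ATF3 (0.60), JDP2 (0.46) and MAF (1.41) higher and MAFF (-0.56) lower, as log2 fold changes, and 2 passed without replicate 1, beside 11.4%. Between the untreated lines 1 of the 9 passed as higher and 1 as lower in NS1 cells, beside 12.5% of all genes. BATF2, a partner of JUN in immune responses, was lower in NS1 cells (0.45 ± 0.36 against 1.90 ± 0.07 CPM, SD, n = 3, log2 fold change -1.96, adjusted p = 0.0116, edgeR). MAF was higher in NS1 cells (adjusted p = 0.0191, edgeR), on counts of 0, 1 and 0 in untreated WT libraries and 7, 4 and 8 in untreated NS1 libraries, too few for a firm fold.

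Of 27 other immediate-early and early genes, 23 were tested and 3 passed in NS1 cells, 1 higher and 2 lower, beside 6.15% of all genes, with a median of -0.10. BTG2, an antiproliferative gene, rose from 2.13 ± 0.24 to 6.15 ± 1.66 CPM (SD, n = 3; adjusted p = 0.0228 at a log2 fold change of 1.53, edgeR). IER2, an early nuclear factor, fell from 65.3 ± 3.61 to 42.2 ± 3.87 CPM (log2 fold change -0.63, adjusted p = 0.0366). MCL1, a survival protein of the BCL2 family, fell from 258 ± 4.64 to 185 ± 5.56 CPM (log2 fold change -0.48, adjusted p = 0.0355, both edgeR). The group thus went both ways, and EGR2, EGR3, EGR4 and ARC were too low to test. With the block 13 of the 23 passed, 5 higher and 8 lower, beside 25.9% of all genes. With 1 NS1 library left out 0 of them passed, except that 1 did without treated replicate 2. Between the untreated lines 7 passed, beside 12.5% of all genes, 6 of them higher in NS1 cells: among these were HBEGF (log2 fold change 1.55), a ligand of the EGF receptor, SGK1 (1.51), a serum-induced kinase, and CCN2 (1.18), a matricellular protein. NAB1, a corepressor of EGR1, was lower (-0.97).

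SRF and 5 of its cofactors were all tested, and 0 passed with the inducer in NS1 cells, beside 6.15% of all genes (edgeR). Of the 6, 1 had an unadjusted p under 0.05 in edgeR, DESeq2 called 1, and the median was -0.01. SRF itself changed by -0.03 on the log2 scale (SE 0.11). ELK3, an ETS-domain partner of SRF, had the smallest adjusted p of the group, 0.0724, at a log2 fold change of -0.60; with the block it passed (adjusted p = 8.73e-05, edgeR). Between the untreated lines 1 of the 6 passed, beside 12.5% of all genes. This was SRF, higher in NS1 cells at 57.1 ± 2.15 against 43.5 ± 4.45 CPM (n = 3, ± SD, log2 fold change 0.40, adjusted p = 0.0287, edgeR).

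Genes with well-known AP-1 sites went in both directions. Of 16, 14 were tested and 4 passed with the inducer in NS1 cells, 2 higher and 2 lower, beside 6.15% of all genes, with a median of -0.42. PLAU, the urokinase protease, fell from 158 ± 14.7 to 93.4 ± 20.9 CPM (n = 3, ± SD; log2 fold change -0.76, adjusted p = 0.0172, edgeR). CD44, a hyaluronan receptor, fell from 833 ± 52.6 to 516 ± 74.7 CPM (log2 fold change -0.69, adjusted p = 0.0103, edgeR). HMOX1, the haem-degrading enzyme, rose from 86.9 ± 10.7 to 184 ± 62.9 CPM (log2 fold change 1.09, adjusted p = 0.0318, edgeR), and MMP13, a collagenase, rose from 1.42 ± 0.48 to 8.15 ± 6.19 CPM (log2 fold change 2.51, adjusted p = 0.0315, edgeR). MMP13 is uneven, with 294 counts in treated replicate 1 and 48 and 60 in the other treated libraries. With the block 10 of the 14 passed, 3 higher and 7 lower, beside 25.9% of all genes, and 9 passed without replicate 1, beside 11.4%; 4 passed without treated replicate 2, and 1 or 2 without any other NS1 library. Between the untreated lines 2 of the 14 passed as higher and 1 as lower in NS1 cells, beside 12.5% of all genes. PLAU (1.05) and HMOX1 (0.90) were the higher ones, as log2 fold changes.

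Of 7 heat shock genes, read as a sign of general stress, 2 passed with the inducer in NS1 cells, 1 higher and 1 lower, beside 6.15% of all genes, with a median of -0.07. HSPB1 rose from 97.0 ± 8.98 to 148 ± 26.9 CPM (n = 3, ± SD; log2 fold change 0.61, adjusted p = 0.0329) and HSP90AA1 fell from 1816 ± 192 to 1336 ± 180 CPM (log2 fold change -0.44, adjusted p = 0.0463, both edgeR). With the block 6 of 7 passed, 3 in each direction, beside 25.9% of all genes, and with 1 NS1 library other than treated replicate 1 left out 0 did. The summed level of the 7 was 4054 to 4303 CPM in treated NS1 libraries and 4668 to 4848 CPM in untreated ones. Most of it was HSP90AA1 and HSPA8 (means of 1930 CPM untreated and 1607 CPM treated). Of the 7, 3 were higher and 4 lower. HSPA1A (279 and 363 CPM) and HSPA1B (297 and 381 CPM) were higher without overlap, but neither passed (adjusted p = 0.116 and 0.115, edgeR). None of the 7 was at 0 in any library, and HSPA1A and HSPA1B are near-identical copies whose reads could be split. The summed level of the luminal markers, nearly all of it GATA3, PPARG and FOXA1, was 134.5 to 152 CPM in untreated NS1 libraries and 205 to 272 CPM in treated ones. The epithelial sum overlapped between these groups, at 4018 to 7550 and 4987 to 10960 CPM. The other marker sums were also free of overlap between untreated and treated NS1 libraries, as were 27.2% of all single genes. The mesenchymal genes, nearly all of it FN1, stood at 3705 to 4169 and 4867 to 7430 CPM. The basal genes, nearly all of it CD44, stood at 789 to 891 and 450.5 to 597 CPM. Of the other mesenchymal genes, CDH2 had means of 138 and 177 CPM in these groups, and VIM, going the other way, 30.4 and 26.8 CPM. The sums of the absent cell types stayed low, at 1.91 to 2.33 and 3.49 to 4.40 CPM for fibroblasts, 0.432 to 0.872 and 1.09 to 1.83 CPM for leukocytes, and 0.0617 to 1.06 and 1.35 to 4.07 CPM for endothelium. The part of these shifts in the members' changes was not tested. Between the untreated lines 1 of the 7 passed, beside 12.5% of all genes. This was HSPB1, lower in NS1 cells (log2 fold change -0.93, adjusted p = 0.00215, edgeR).

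Of the 59 tested genes of the 5 lists, 0 passed in WT cells given the inducer, in edgeR and in DESeq2, beside 0% of all genes. In edgeR 0 of the 59 had an unadjusted p under 0.05, beside 94 of the 17775 genes. Between the treated lines, where 28.2% of all genes passed, the leucine zipper partners had 2 genes higher and 1 lower in NS1 cells of 9. The other early genes had 7 higher and 3 lower of 23, SRF and its cofactors 2 higher and 1 lower of 6, the genes with AP-1 sites 2 higher and 5 lower of 14, and the heat shock genes 2 higher and 1 lower of 7. In the interaction 0 of the 59 passed, beside 0.0225% of all genes (edgeR), 10 had an unadjusted p under 0.05, and DESeq2 called 2.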

How the data were processed

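Poly(A) RNA was sequenced, per the labels' protocols. One table of raw gene counts, not normalised, was deposited by the authors; STAR 2.7.3a, featureCounts 1.6.4 and hg38 are named in the submitters' processing notes, and the annotation and strand setting are not given in the sources used here. Groups came from the labels. Counts were filtered (filterByExpr), scaled by TMM and tested in edgeR 4.0.16 (R 4.3.3) with a mean per group over all 12 libraries, quasi-likelihood tests and Benjamini-Hochberg adjustment over 17775 genes. Alternatives were DESeq2 1.42.0, other scalings and filters, replicate blocks and left-out libraries. Counting error is larger at low counts, as for FOS. Symbols matched 60306 of 60603 genes; lengths and gene positions came from GENCODE (hg38), positions only where gene versions matched, and promoters from RefSeq. Deviations of same-numbered libraries from their group mean correlated within NS1 (0.713, 0.386 and 0.384) and WT (0.752, 0.385 and 0.256). Libraries of unlike number were not compared. With deviations taken in groups of 3, a shift of replicate 1 also makes the values of replicates 2 and 3 positive. The correlations therefore cannot show that numbers 2 and 3 pair the libraries within a line. Members and lists were chosen with earlier results of these data known. All members were named; list genes were named where called with the inducer in NS1 cells or, up to 4 per list, by size among those called between the untreated lines. List genes named only for the replicate block, for a count of 0 or 1 called, or as too low to test were chosen after their values were seen. So were those named for their part in a summed level or for a direction unlike it. The 2 nearest profiles of each member called in NS1 were named. Some genes of the lists and markers are counted but not reported by name here.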

Additional observations from a re-analysis of the deposited data

How the results depend on the processing

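Members called with the inducer in NS1 cells numbered 3 under the 3 other scalings, a floor of 10 counts, the fit to the compared groups and DESeq2, always FOSL1, JUND and PHLDA1. They numbered 5 with no filter (beside 5.28% of all genes), 5 with a common replicate block (13.6%) and 6 with the replicate block within each line (25.9%). Leaving out libraries gave 0 to 6. The 6 came without replicate 1 of every group, beside 11.4% of all genes. The count was 0 without treated replicate 3 of NS1 cells, beside 403 of all genes. It was also 0 without replicate 2 or replicate 3 of every group, beside 0 of all genes. Between untreated lines the count ran from 1 (without replicate 3, beside 182 of all genes) to 7 (without replicate 1, beside 19.6%) on leaving out libraries. Between treated lines it ran from 4 to 8, with 8 without replicate 1, beside 34% of all genes. In WT it was 0 in every fit. For the interaction it was 0 under the other scalings and the count floor. It was 3 with no filter (beside 2% of all genes), 3 with a common replicate block (3.57%) and 4 with the block within each line (14%). DESeq2 called 2, beside 381 of all genes. On leaving out libraries it ran from 0 to 3, with 3 without replicate 1, beside 3.24% of all genes. Across lines, same-numbered libraries correlated at 0.00601 to 0.19, less than within a line. Yet replicate 1 was the lowest library in all 4 groups for JUN, JUNB, JUND and IER3. Whether numbers pair libraries across lines was not tested. The replicate block called 3 members in untreated and 7 in treated lines, beside 22% and 37.5% of all genes. Where one arm was left with 2 libraries the spread was pooled over groups.

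Changes of sign concerned only small values, none of them called. JUND with the inducer in WT turned to 0.0047 under RLE scaling, 0.0025 with no filter, 0.0044 and 0.0060 with the common and within-line replicate block and 0.0065 in DESeq2; FOSL1 there turned to 0.0047 with the within-line block. JUNB between treated lines turned to -0.065 with library totals and -0.032 with the replicate block. On leaving out libraries, log2 fold changes in WT ran from -0.20 to 0.49 for FOSB, -0.22 to 0.14 for FOSL1, -0.22 to 0.050 for FOSL2, -0.28 to 0.45 for IER3, -0.19 to 0.087 for JUN, -0.081 to 0.34 for JUNB, -0.082 to 0.13 for JUND and -0.20 to 0.11 for PHLDA1, and JUNB between treated lines from -0.16 to 0.27. The cause of these changes was not tested. With the length of the longest coding transcript in place of merged exons, the FOSL1 share in treated NS1 cells was 62.1%. With 3 libraries a group and as few as 11 counts, changes of FOS were not resolved.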
